A study of Homo sapiens with 11 samples.

Results

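The early response of RWPE1 cells to low oxygen was measured by comparing cells after 6 h of hypoxia with cells in normoxia, called 0 h. The comparison took every library labelled untreated and every library labelled as 6 h at 1% oxygen, which gave 6 of the 11 libraries of the series, 3 per group, and it was made across all genes. RWPE1 is a non-tumorigenic line of human prostate epithelial cells that was immortalized with a human papillomavirus, and it is 1 line, so the values describe no other prostate cells. All groups were grown in serum-free keratinocyte medium with bovine pituitary extract and epidermal growth factor (EGF). The cells at 6 h were kept at 1% oxygen. The labels give 10 mM HEPES buffer for the hypoxic medium and do not say whether the medium at 0 h held it, so if it did not, effects of oxygen and of buffer cannot be told apart. RNA longer than 200 nucleotides was turned into stranded libraries in a single batch and sequenced as single-ended reads. The other 5 libraries, from 12 h and 24 h of hypoxia, entered the fit as groups of their own.

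Cells sense oxygen through prolyl hydroxylases, the EGLN proteins, which need oxygen to mark the alpha subunits of the hypoxia-inducible factors (HIF) for destruction by a ubiquitin ligase that contains VHL. When oxygen falls, the alpha subunits (HIF1A and EPAS1) escape this mark, pair with ARNT and bind hypoxia response elements, whose core is ACGTG or GCGTG. Their known targets take part in glucose uptake, glycolysis, acid export, blood vessel growth and the feedback on HIF itself. This control acts largely on the HIF proteins, which RNA-seq does not measure.

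The table held whole-number counts for 60676 Ensembl genes. Totals per library ran from 28362918 to 32922049 at 0 h and from 27925012 to 49488345 at 6 h, the highest in 6 h replicate 3. Of all genes, 37521 had at least 1 count in these 6 libraries and 19981 passed the filter on low counts and were tested. Levels are given as counts per 1000000 (CPM) after scaling by trimmed means (TMM), which does not correct for gene length, so levels were compared within a gene and not between genes. A gene is called higher or lower if its adjusted p was under 0.05 in the quasi-likelihood test of edgeR, adjusted by Benjamini-Hochberg across the tested genes, and each adjusted p below is of this kind. Exact permutation of 3 against 3 libraries has 0.1 as its smallest p. The labels do not say that the replicates came from separate cultures, so the p-values measure the spread between libraries, which may be technical. That spread was estimated over all 11 libraries of the fit, so those of 12 h and 24 h enter each p-value too.

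The cells carried the markers of basal epithelium that RWPE1 is known for. KRT5, a basal keratin, stood at 7294, 6077 and 8459 CPM at 0 h and 10451, 12269.7 and 8265 CPM at 6 h, and TP63, the master regulator of basal identity, at 259, 218 and 248 CPM at 0 h. Luminal markers were in part present: the 9 tested summed to 771, 660 and 750 CPM at 0 h, and the luminal keratins KRT8 and KRT18, given below, were expressed. The secreted luminal kallikreins KLK2 and KLK3 had no more than 1 count in any of the 6 libraries. Of 20 markers of stromal, endothelial, leukocyte and neuroendocrine cells 6 were tested, and LUM and CDH5 had 0 counts in all 6 libraries. The summed level of the tested ones was 73.3, 96.2 and 85.1 CPM at 0 h and 82.8, 89.8 and 93.1 CPM at 6 h, ranges that overlap, although 2 of the 6 were called higher (CHGA and ENO2) and 1 lower (PTPRC), with a median log2 fold change of -0.45. With scaling by library size alone 1 was higher and 4 were lower. CHGA, of neuroendocrine cells, and PTPRC, of leukocytes, reached no more than 0.422 and 0.347 CPM in any library, too few reads for a fold to be given. ENO2, a neuroendocrine marker that is also a glycolytic enzyme, stood at 24.3, 33.6 and 32.3 CPM at 0 h and 50.02, 43.8 and 45.6 CPM at 6 h (log2 fold change 0.63, standard error 0.21, edgeR adjusted p = 0.0229). ENO2 lost its call on leaving out replicate 1 of 0 h or of 6 h and with library size alone (log2 fold changes 0.49, 0.58 and 0.31), and PTPRC lost its call on leaving out replicate 1 or 2 of 6 h and did not pass the filter without replicate 2 or 3 of 0 h. The part of such cells in the results was not tested.

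At 6 h the libraries of the group differed more from each other than at 0 h. The median over tested genes of the standard deviation of log2(CPM + 0.5) was 0.0937 at 0 h and 0.186 at 6 h. 6 h replicate 3 differed from the others in some genes. Of 11130 genes with a mean of at least 5 CPM, 58 were more than 2-fold higher and 85 more than 2-fold lower in it than in the mean of the other 6 h libraries. Such counts were not made for replicates 1 and 2. Over all tested genes the Euclidean distance in log2 CPM was 74.6 between 6 h replicates 1 and 2, 87.1 between 1 and 3 and 70.0 between 2 and 3. Replicates 2 and 3 were thus the closest pair. The mitotic genes were lower and HSPA6 higher in 6 h replicate 3 than in the other 6 h libraries, as given below. Results that rest on 6 h replicate 3 are given with and without it. No pair of libraries within a group differed by as little as sampling noise. Where the exons of a gene overlap a gene on the other strand the counts could mix both, since the strand setting of the count is not given in the sources used here. Of the genes named below this concerns, as a share of exonic bases, MALAT1 (83.7%), IER2 (52.2%), POLR1G (49.8%), MELTF-AS1 (44.9%), UBE2D3-AS1 (39.7%), XAF1 (38.3%), NKX1-2 (37.7%) and CA9 (35.7%). Smaller shares were found for DDIT3 (31.6%), PRDX1 (29.8%), DUSP6 (28.6%), SLCO4A1-AS1 (22.6%) and VHL (23.5%).

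The response at 6 h was broad. Of the tested genes 10552 (52.8%) were called, 5018 (25.1%) higher and 5534 (27.7%) lower. With only the compared groups in the fit 12219 genes were called, and without 24 h replicate 1 or 2 the counts were 13108 and 13115. Changes beyond 2-fold were called for 2490 genes higher (12.5%) and 3609 lower (18.1%), and beyond 4-fold for 711 higher (3.56%) and 1038 lower (5.19%). In 13906 genes (69.6%) the 3 libraries at 6 h all lay above or all below the 3 at 0 h. Of the genes said below to have risen or fallen, HSP90B1 and POLR1A alone had overlapping groups, and in the others the libraries at 6 h lay wholly beyond those at 0 h. The shares of called genes are the background against which the counts for each group of genes below are to be read. The median log2 fold change over all tested genes was -0.002. Scaling by library size alone moved it to -0.32 and the share of higher genes among the calls from 47.6% to 27.6%, so each direction below is relative to the TMM scale.

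The 12 protein-coding genes with the highest log2 fold changes at 6 h were EGLN3, NKX1-2, ASB2, HSPA6, IGFBP3, RRAD, SLC5A3, S1PR3, DUSP1, HSPA1A, PGF and UBASH3B. The 12 lowest were DDIT3, ZC3H6, CYP1B1, BMF, SLFN5, ZFP3, CYP1A1, JMJD7-PLA2G4B, CARF, GPCPD1, ZNF658 and CHAC1. They were drawn from 5705 called protein-coding genes with a mean of at least 5 CPM and no overlap between groups, of which 3189 were higher and 2516 lower. Their calls and lack of overlap are what the choice required, so the values describe these genes and test nothing further.

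**Figure D1:**
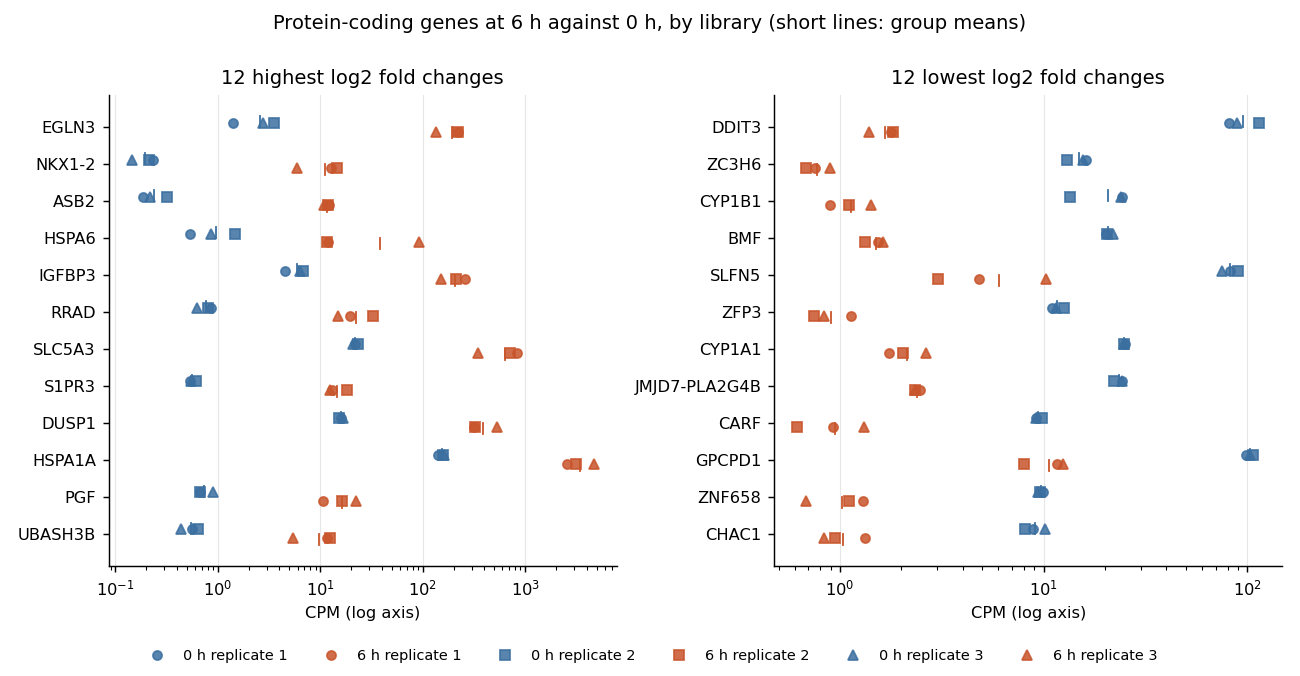
CPM on a log axis in each library for the 12 highest (left) and 12 lowest (right) protein-coding genes by log2 fold change. Blue marks are the 3 libraries at 0 h and orange marks the 3 at 6 h, with the marker shape giving the replicate number and short lines the group means. HSPA6 has 1 library, 6 h replicate 3 at 92.1 CPM, far above the other 6 h libraries.

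A gene of HIF feedback led the list. EGLN3, a prolyl hydroxylase that targets HIF for destruction (ENSG00000129521, chromosome 14, 33924227 to 34462774, minus strand; GRCh38), had 1.41, 3.52 and 2.74 CPM at 0 h and 220.4, 219.9 and 134 CPM at 6 h. The groups lay far apart, with a ratio of mean CPM of 74.9 (log2 fold change 6.23, standard error 0.42, edgeR adjusted p = 6.87e-07). EGLN1, the main HIF prolyl hydroxylase of most cells, rose from 3.397, 3.49 and 3.44 CPM to 11.1, 18.5 and 14.8 CPM (log2 fold change 2.10, standard error 0.19, edgeR adjusted p = 4.78e-06), and CITED2, which competes with HIF for its coactivator, from 4.37, 4.74 and 5.19 CPM to 14.4, 15.6 and 19.2 CPM (log2 fold change 1.78, standard error 0.16, edgeR adjusted p = 3.31e-06). HIF1AN, the asparaginyl hydroxylase that also restrains HIF, rose less, with a log2 fold change of 0.51 (edgeR adjusted p = 0.00320) that was 0.19 and not called on library size alone. All 4 of these genes encode restraints on HIF.

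The subunits of HIF itself behaved otherwise. ARNT, the shared partner, fell from 43.00, 43.1 and 42.2 CPM to 25.2, 20.01 and 25.9 CPM (log2 fold change -0.85, standard error 0.17, edgeR adjusted p = 0.00125). HIF1A stood at 209.7, 185 and 209 CPM at 0 h and 276, 247 and 196 CPM at 6 h, with overlapping groups and no call (log2 fold change 0.25, edgeR adjusted p = 0.240). EPAS1, the other alpha subunit, had a log2 fold change of 0.26 (edgeR adjusted p = 0.0972), EGLN2 of -0.58 (adjusted p = 0.118), VHL of 0.07 (adjusted p = 0.722) and ARNT2, under 1 CPM in every library of 0 h and 6 h, of -0.70 (adjusted p = 0.181). In all, of 10 tested genes of oxygen sensing and HIF subunits 4 were called higher and 1 lower, with a median of 0.26 that fell to -0.06 on library size alone. HIF3A was below the filter, with at most 2 counts in a library.

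The promoters of the leading genes are shown because the response element is a short sequence that can be read in them. The 250 bases before the RefSeq start of each gene (GRCh38.p14) are written 5′ to 3′ on the strand of the gene, with every ACGTG or GCGTG, or their reverse complements CACGT and CACGC, in capitals. EGLN3 (chr14:33951075-33951324, minus strand), NKX1-2 (chr10:124450036-124450285, minus strand), ASB2 (chr14:93976571-93976820, minus strand) and IGFBP3 (chr7:45921273-45921522, minus strand) are the highest genes of the table outside the heat shock family.
EGLN3: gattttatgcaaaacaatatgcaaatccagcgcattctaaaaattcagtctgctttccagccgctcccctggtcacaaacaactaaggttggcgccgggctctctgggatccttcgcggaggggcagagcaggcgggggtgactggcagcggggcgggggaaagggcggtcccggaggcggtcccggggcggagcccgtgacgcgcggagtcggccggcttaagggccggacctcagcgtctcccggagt
NKX1-2: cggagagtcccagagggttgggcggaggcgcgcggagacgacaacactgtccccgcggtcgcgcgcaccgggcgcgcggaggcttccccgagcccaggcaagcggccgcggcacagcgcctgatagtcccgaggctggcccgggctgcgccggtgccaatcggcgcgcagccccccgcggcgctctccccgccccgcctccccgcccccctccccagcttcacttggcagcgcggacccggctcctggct
ASB2: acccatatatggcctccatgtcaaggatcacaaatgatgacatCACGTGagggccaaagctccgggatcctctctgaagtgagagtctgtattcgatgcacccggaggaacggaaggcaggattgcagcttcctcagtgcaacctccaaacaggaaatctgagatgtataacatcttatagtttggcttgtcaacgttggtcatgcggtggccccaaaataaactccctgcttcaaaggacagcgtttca
IGFBP3: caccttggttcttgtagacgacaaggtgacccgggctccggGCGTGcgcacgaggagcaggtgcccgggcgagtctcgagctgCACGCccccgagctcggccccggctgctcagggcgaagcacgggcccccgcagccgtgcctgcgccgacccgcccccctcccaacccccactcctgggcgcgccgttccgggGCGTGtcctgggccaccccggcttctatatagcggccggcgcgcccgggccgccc
In ASB2 the match is a CACGTG, which holds the core on both strands and is also the E-box that other factors read, with its first base at -207 from the start. In IGFBP3 there were 3 matches, beginning at -209, -167 and -55. In the windows of EGLN3 and NKX1-2 these letters were not found. Of the 12 highest genes 11 were in the promoter table and 5 of these held a core (ASB2, IGFBP3, SLC5A3, S1PR3 and DUSP1). The core is common: it was in 43.1% of 27305 promoters of the table and in 56.3% of 12101 promoters of tested genes. Promoters of genes called higher held it in 59.4%, those beyond 2-fold in 59.5% and those beyond 4-fold in 52.2%, against 54.5% for genes called lower. A match is a description of the letters, not evidence of a bound site.

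Most of the other highest genes are of diverse function. IGFBP3 (ENSG00000146674, chromosome 7, 45912245 to 45921874, minus strand), which binds insulin-like growth factors in the extracellular space, went from 4.58, 6.77 and 6.396 CPM to 262, 213 and 149.8 CPM (log2 fold change 5.14, standard error 0.36, edgeR adjusted p = 7.46e-07). ASB2, a substrate receptor of a ubiquitin ligase, went from 0.185, 0.320 and 0.216 CPM to 12.1, 12.00 and 10.9 CPM (log2 fold change 5.59). NKX1-2, a homeobox gene, went from 0.231, 0.213 and 0.144 CPM to 12.7, 14.6 and 5.95 CPM (log2 fold change 5.79, standard error 0.50), with 10, 8 and 6 counts at 0 h. RRAD, a small GTPase that dampens calcium channels, went from 0.855, 0.800 and 0.625 CPM to 19.5, 32.7 and 15.05 CPM (log2 fold change 4.87). S1PR3, a receptor for sphingosine 1-phosphate, went from 0.531, 0.613 and 0.553 CPM to 12.9, 18.3 and 12.5 CPM (log2 fold change 4.68), and UBASH3B, a phosphatase that acts on receptor tyrosine kinases, from 0.555, 0.640 and 0.433 CPM to 11.5, 12.4 and 5.38 CPM (log2 fold change 4.16). Every one of these genes was separated from 0 h in all libraries at 6 h, as their choice required. The first gene outside the 12 highest was PLOD2 (log2 fold change 4.16), just under UBASH3B.

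SLC5A3, the sodium-coupled transporter of myo-inositol, an osmolyte, stood at 21.9, 23.2 and 20.9 CPM at 0 h and 836, 704 and 348 CPM at 6 h (log2 fold change 4.84, standard error 0.36, edgeR adjusted p = 1.19e-06). SLC6A6, the taurine transporter, and AKR1B1, which makes sorbitol, are also genes of osmolyte supply and were looked up after the value of SLC5A3 was seen. SLC6A6 rose from 8.06, 8.74 and 8.15 CPM to 41.99, 45.2 and 29.1 CPM (log2 fold change 2.22, standard error 0.18, edgeR adjusted p = 2.23e-06), and AKR1B1 from 7.903, 8.93 and 7.67 CPM to 20.8, 24.03 and 23.3 CPM (log2 fold change 1.48, standard error 0.17, edgeR adjusted p = 2.09e-05).

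Glucose uptake and glycolysis rose along nearly the whole pathway. Of 24 genes tested 20 were called higher, against 25.1% of all genes, and 2 lower, with a median log2 fold change of 1.44. Their summed level was 5250.5, 4987 and 5554 CPM at 0 h and 17845, 17855 and 14505 CPM at 6 h. The largest changes were in SLC2A3, a glucose transporter of high affinity (log2 fold change 4.15), in LDHA, which turns pyruvate into lactate, and in PFKFB3, which makes the activator of phosphofructokinase. LDHA rose from 350.1, 349.5 and 384 CPM to 3865, 3332 and 2516 CPM (log2 fold change 3.16, standard error 0.22, edgeR adjusted p = 6.90e-07), with 6 h replicate 3 the lowest of its group. PFKFB3 rose from 56.2, 55.3 and 62.1 CPM to 482, 503 and 372 CPM (log2 fold change 2.97, standard error 0.26, edgeR adjusted p = 3.01e-06).

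Within the pathway the phosphofructokinase step was split. Among the isoforms that form the enzyme, PFKM fell from 79.7, 77.1 and 80.00 CPM to 59.01, 57.9 and 60.99 CPM (log2 fold change -0.41, standard error 0.11, edgeR adjusted p = 0.00884) and PFKL from 112, 108 and 118 CPM to 74.7, 98.6 and 90.4 CPM (log2 fold change -0.36, edgeR adjusted p = 0.0500, just under the threshold), while PFKP rose (log2 fold change 0.92, edgeR adjusted p = 9.03e-05). PFKP is named for this contrast after its value was seen. PFKFB2, another isoform of the regulatory enzyme, had 52.7, 55.6 and 54.5 CPM at 0 h and 39.7, 40.9 and 33.5 CPM at 6 h and was not called (edgeR adjusted p = 0.102). The call of PFKL was lost on leaving out any single library of 0 h, 6 h replicate 1 or 3, or 12 h replicate 3 (log2 fold changes -0.45 to -0.25). SLC16A3, which exports lactate with a proton, rose (log2 fold change 1.40, edgeR adjusted p = 0.000625).

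Genes that steer pyruvate and mitochondria under low oxygen moved in part. BNIP3, a receptor for the removal of mitochondria, rose from 38.9, 42.2 and 40.3 CPM to 348, 324 and 235 CPM (log2 fold change 2.90, standard error 0.22, edgeR adjusted p = 1.22e-06), and its relative BNIP3L had a log2 fold change of 1.13 (edgeR adjusted p = 7.94e-05). PDK1, the kinase that keeps pyruvate out of the mitochondrion, rose from 10.5, 10.7 and 10.1 CPM to 32.2, 26.3 and 20.5 CPM (log2 fold change 1.33, standard error 0.17, edgeR adjusted p = 5.38e-05), whereas PDK2, PDK3 and PDK4 had log2 fold changes of 0.01, -0.04 and -0.30 with no call. SIAH2, a ubiquitin ligase that acts on the EGLN proteins, rose (2.003), as did MXI1, an antagonist of MYC (1.38). LONP1, the protease of the mitochondrial matrix, fell from 122, 121 and 124 CPM to 55.1, 62.9 and 65.5 CPM (edgeR adjusted p = 2.91e-05). NDUFA4L2 (-0.38), FUNDC1 (-0.32) and HIGD1A (0.37) were not called. Over the 12 tested genes 5 were higher and 1 lower, with a median of 0.19 that was -0.13 on library size alone.

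Genes of acid handling rose in 4 of 6 tested. CA9, the carbonic anhydrase on the cell surface, was at 0.370, 0.960 and 0.938 CPM at 0 h and 7.35, 8.21 and 4.83 CPM at 6 h (log2 fold change 3.17, standard error 0.39, edgeR adjusted p = 3.70e-05). CA12, another surface carbonic anhydrase, went from 10.7, 7.86 and 9.71 CPM to 66.4, 55.1 and 49.3 CPM (log2 fold change 2.59, standard error 0.23, edgeR adjusted p = 4.01e-06). SLC4A7, a bicarbonate transporter (0.24), and CA2, the cytosolic anhydrase (0.32), were not called. The median of the list was 1.22.

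Genes that act on blood vessels, mostly secreted factors but also the receptors FLT1 and NRP1, rose in most cases. Of 17 tested 12 were called higher and 3 lower, with a median of 1.45. PGF, a ligand of the VEGF family (ENSG00000119630, chromosome 14, 74941834 to 74955626, minus strand), rose from 0.670, 0.666 and 0.890 CPM to 10.6, 16.2 and 22.5 CPM (log2 fold change 4.46, standard error 0.33, edgeR adjusted p = 1.18e-06). ANGPTL4, which inhibits lipoprotein lipase, went from 0.347, 0.187 and 0.529 CPM to 8.27, 10.5 and 7.41 CPM (log2 fold change 4.59, standard error 0.46, edgeR adjusted p = 8.38e-06), and ADM, a vasodilator peptide, from 56.1, 47.2 and 59.8 CPM to 482, 314 and 595 CPM (log2 fold change 3.09, standard error 0.31, edgeR adjusted p = 8.82e-06). Those that fell were NRP1, a co-receptor for VEGF, from 29.2, 29.6 and 33.3 CPM to 9.703, 9.697 and 15.8 CPM (log2 fold change -1.38, standard error 0.23, edgeR adjusted p = 0.000327), the growth factor FGF2, from 10.5, 11.9 and 10.7 CPM to 5.67, 4.800 and 6.44 CPM (log2 fold change -0.97, standard error 0.18, edgeR adjusted p = 0.000634), and FGF11 (log2 fold change -0.69, edgeR adjusted p = 0.0194). FGF11 lost its call on leaving out replicate 1 of 0 h or replicate 1 or 2 of 6 h (log2 fold changes -0.92 to -0.58). Among the VEGF members named after their values were seen, the receptor FLT1 was called higher, at 0, 0.0533 and 0.0240 CPM at 0 h and 0.786, 0.616 and 0.644 CPM at 6 h, too few reads at 0 h for a fold to be given. The ligand VEGFB, at 31.8, 40.2 and 33.5 CPM and 17.7, 26.9 and 36.1 CPM, was not called (log2 fold change -0.38, edgeR adjusted p = 0.171) and was called lower without 6 h replicate 3 (-0.65).

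Enzymes that use oxygen to modify proteins were a further class. Of 11 tested collagen hydroxylases and lysyl oxidases 7 were higher and 1 lower, with a median of 0.72. PLOD2, the lysyl hydroxylase that sets stable collagen cross-links, rose from 24.1, 24.2 and 23.7 CPM to 550.4, 389.8 and 344 CPM (log2 fold change 4.16, standard error 0.19, edgeR adjusted p = 2.76e-07), while its relatives PLOD1 and PLOD3 had log2 fold changes of 0.06, not called, and 0.72, called. P4HA1, the catalytic subunit of prolyl hydroxylation, rose from 23.2, 36.4 and 27.3 CPM to 246, 173 and 223 CPM (log2 fold change 2.89, standard error 0.19, edgeR adjusted p = 6.56e-07), and P4HA2 (0.42) and P4HA3 (-0.17) were not called. Of the lysyl oxidases, which cross-link collagen outside the cell, LOXL2 rose from 2.06, 2.99 and 2.43 CPM to 21.8, 24.4 and 10.6 CPM and LOX from 2.45, 1.92 and 2.31 CPM to 10.97, 10.5 and 6.96 CPM (log2 fold changes 2.92 and 2.08), while LOXL1 fell from 4.23, 3.598 and 4.52 CPM to 1.33, 1.17 and 1.84 CPM (-1.49). The change in each family was thus carried by some members and not by all.

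Genes of the Jumonji enzymes, mostly known as histone demethylases, which also need oxygen, gave 9 higher and 1 lower of 18, with a median of 0.44. On library size alone 2 were higher and 1 lower. JMJD6 rose from 16.6, 17.2 and 17.8 CPM to 90.2, 104 and 117 CPM (log2 fold change 2.59, standard error 0.20, edgeR adjusted p = 1.74e-06), KDM3A, a demethylase of histone H3 lysine 9, from 42.4, 42.5 and 41.7 CPM to 207, 182 and 145 CPM (log2 fold change 2.08, standard error 0.24, edgeR adjusted p = 2.36e-05), and KDM7A by 1.29 on the log2 scale, a call lost on library size alone (0.97). PHF2 fell from 75.4, 72.8 and 83.8 CPM to 31.8, 26.8 and 38.6 CPM (log2 fold change -1.25, standard error 0.16, edgeR adjusted p = 5.51e-05). KDM6B (-0.26) and JMJD1C (-0.12) were not called.

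Immediate early genes and the feedback on MAP kinase signalling rose in part. DUSP1, a phosphatase that switches off MAP kinases (ENSG00000120129, chromosome 5, 172768096 to 172771195, minus strand), stood at 15.9, 15.2 and 16.7 CPM at 0 h and 319, 325 and 526 CPM at 6 h (log2 fold change 4.61, standard error 0.25, edgeR adjusted p = 2.76e-07). DUSP6, which acts on ERK, went from 3.95, 2.99 and 3.27 CPM to 23.8, 21.1 and 34.5 CPM (log2 fold change 2.96, standard error 0.44, edgeR adjusted p = 0.000149), and EREG, a ligand of the EGF receptor, from 10.2, 9.06 and 9.91 CPM to 73.3, 96.03 and 67.7 CPM (log2 fold change 3.02, standard error 0.51, edgeR adjusted p = 0.000340). The ligands did not move together: TGFA rose from 36.4, 30.04 and 33.1 CPM to 78.6, 65.2 and 116 CPM (log2 fold change 1.39, edgeR adjusted p = 0.000193), while AREG fell from 46.9, 46.8 and 45.9 CPM to 25.5, 17.5 and 38.4 CPM (log2 fold change -0.78, edgeR adjusted p = 0.0413). AREG lost its call on leaving out any one library of 0 h, replicate 1 or 2 of 6 h, or replicate 3 of 12 h (log2 fold changes -1.11 to -0.54 over the libraries left out). HBEGF and BTC were not called (log2 fold changes -0.50 and -0.87, edgeR adjusted p = 0.198 and 0.114), BTC was called lower without 6 h replicate 3 (-1.57), and these 4 ligands were named after their values were seen. Of the receptors, EGFR fell from 482, 515 and 496 CPM to 227, 273 and 221 CPM (log2 fold change -1.05, standard error 0.19, edgeR adjusted p = 0.000586), ERBB3 from 49.4, 48.7 and 48.5 CPM to 25.1, 24.4 and 23.1 CPM and ERBB2 from 95.1, 98.8 and 103 CPM to 51.5, 51.4 and 63.7 CPM (log2 fold changes -1.01 and -0.83, edgeR adjusted p = 0.000313 and 0.000444). Of 20 tested genes of this list 11 were higher and 4 lower, with a median of 0.94.

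Among 22 immediate early transcription factors 11 were higher and 3 lower, with a median of 0.78. FOSL1, a subunit of AP-1, rose from 6.22, 4.66 and 5.41 CPM to 76.7, 76.7 and 128 CPM (log2 fold change 4.11, standard error 0.32, edgeR adjusted p = 1.74e-06), KLF6 from 36.9, 34.7 and 35.03 CPM to 141, 103 and 197 CPM (log2 fold change 2.05, standard error 0.21, edgeR adjusted p = 1.01e-05) and EGR3 from 0.693, 0.933 and 0.601 CPM to 2.02, 1.56 and 4.53 CPM (log2 fold change 1.89, edgeR adjusted p = 0.00191). In all 3 of these genes 6 h replicate 3 was the highest library, and without it their log2 fold changes were 3.82, 1.78 and 1.27. ATF3, a stress-response factor, fell from 13.5, 16.98 and 14.7 CPM to 3.25, 3.63 and 3.66 CPM (log2 fold change -2.10, standard error 0.31, edgeR adjusted p = 0.000120), EGR1 from 51.8, 47.4 and 44.4 CPM to 18.9, 36.2 and 13.5 CPM (log2 fold change -1.07, standard error 0.32, edgeR adjusted p = 0.0134) and IER2, with a log2 fold change of -0.64 (edgeR adjusted p = 0.0253). On leaving out replicate 1 or 3 of 6 h EGR1 and IER2 lost their calls (log2 fold changes -1.57 to -0.79 and -0.73 to -0.54 over single libraries left out), and so did IER2 on leaving out replicate 1 or 3 of 0 h.

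**Figure D2:**
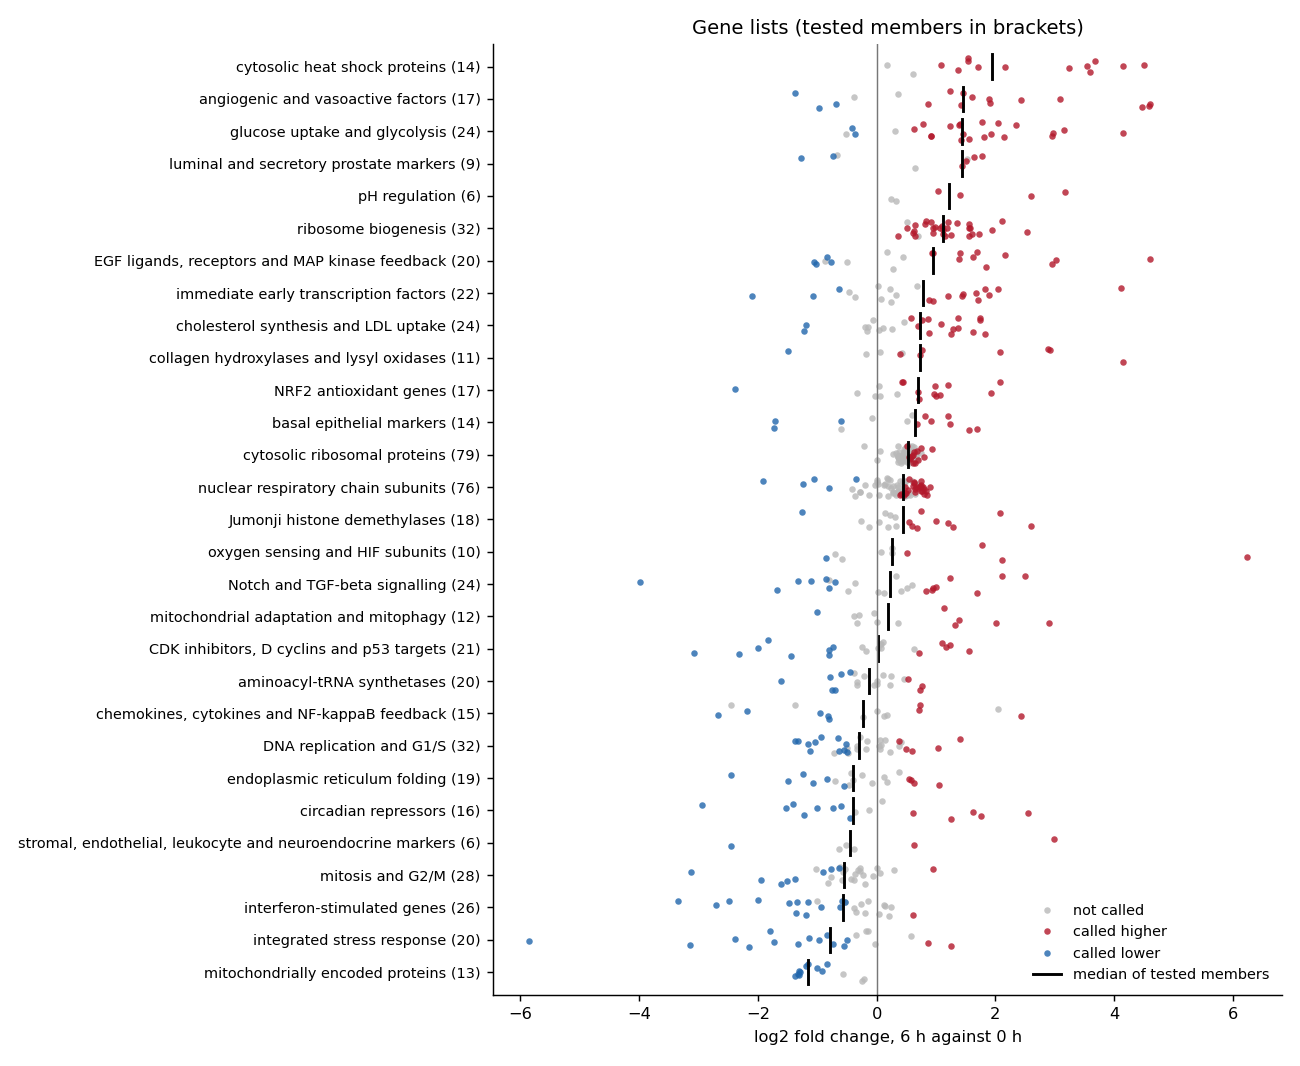
Log2 fold change at 6 h against 0 h of every tested member of the 29 gene lists, ordered by list median (black bars), with members called higher in red, called lower in blue and not called in grey. Heat shock proteins have the highest median, 1.94, and mitochondrially encoded proteins the lowest, -1.16.

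Cytosolic heat shock proteins, the chaperones that refold proteins after heat and other stress, had the highest median of the 29 lists, 1.94, with 12 of 14 members called higher and none lower. Their summed level was 3830.1, 3736 and 3999.7 CPM at 0 h and 20147, 19289.8 and 22039.9 CPM at 6 h. HSPA1A (ENSG00000204389, chromosome 6, 31815543 to 31817946, plus strand), an inducible HSP70, rose from 140.5, 158 and 160.1 CPM to 2572, 3143 and 4671 CPM (log2 fold change 4.5002, standard error 0.39, edgeR adjusted p = 2.97e-06), and HSPA1B, a nearly identical copy between which reads may be split, had a log2 fold change of 4.14. HSPH1, a partner of HSP70, rose from 80.9, 86.8 and 90.6 CPM to 1098, 982 and 1228 CPM (log2 fold change 3.68, standard error 0.22, edgeR adjusted p = 3.87e-07). HSP90AA1, the inducible HSP90, rose from 331, 337 and 329 CPM to 4918, 3209 and 3506 CPM, and HSPA8, the constitutive HSP70, from 325, 393 and 379 CPM to 3720.0, 3437 and 3174 CPM (log2 fold changes 3.54 and 3.24, edgeR adjusted p = 5.17e-07 and 1.38e-06). HSF1, the transcription factor that drives these genes, was at 101, 102 and 105 CPM and 99.3, 130.2 and 116 CPM and was not called (0.17), nor was the small chaperone HSPB1 (0.60, edgeR adjusted p = 0.101).

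HSPA6, a strictly inducible HSP70, is a member of the 12 highest and not of the list. It stood at 0.531, 1.47 and 0.866 CPM at 0 h and 11.8, 11.8 and 92.1 CPM at 6 h (log2 fold change 5.35, standard error 1.06, edgeR adjusted p = 0.00112). 6 h replicate 3 lay far above the other 2, and without it the log2 fold change was 3.64 with the call kept (edgeR adjusted p = 0.00412). The part of this library in the result was not tested beyond leaving it out. In the list as a whole the medians of the 6 h libraries against 0 h were 1.90, 1.74 and 2.29 in replicates 1, 2 and 3.

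The promoters of HSPA6 (chr1:161524290-161524539, plus strand) and HSPA1A (chr6:31815293-31815542, plus strand) are shown as the most responsive of this family, chosen after their values were seen. They are 250 bases before the RefSeq start (GRCh38.p14), with matches to the heat shock element core, GAANNTTC or TTCNNGAA, in capitals.
HSPA6: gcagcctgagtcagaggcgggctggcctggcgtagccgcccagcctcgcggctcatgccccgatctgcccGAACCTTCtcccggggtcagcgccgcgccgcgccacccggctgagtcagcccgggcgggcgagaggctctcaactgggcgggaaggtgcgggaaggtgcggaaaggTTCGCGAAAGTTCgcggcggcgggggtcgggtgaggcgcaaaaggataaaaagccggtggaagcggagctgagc
HSPA1A: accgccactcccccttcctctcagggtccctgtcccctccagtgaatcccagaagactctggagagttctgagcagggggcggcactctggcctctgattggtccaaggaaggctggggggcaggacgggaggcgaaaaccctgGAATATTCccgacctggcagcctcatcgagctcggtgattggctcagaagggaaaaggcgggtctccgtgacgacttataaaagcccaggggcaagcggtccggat
HSPA6 held 3 matches, beginning at -180, -74 and -69, the last 2 of which overlap, and HSPA1A held 1 at -106. In neither window was the hypoxia response core found. The heat shock core was in 11.7% of all promoters, in 8.81% of those of tested genes, in 11.6% of those of genes called higher beyond 4-fold, and in 5 of 13 promoters of the heat shock list.

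Genes of the integrated stress response, in which ATF4 raises amino acid supply and, at length, DDIT3, were mostly lower at 6 h. The activity of the pathway was not measured. Of 20 genes tested 13 were called lower and 2 higher, with a median of -0.78. DDIT3, which encodes CHOP (ENSG00000175197, chromosome 12, 57516588 to 57521737, minus strand), stood at 81.4, 115 and 89.1 CPM at 0 h and 1.78, 1.82 and 1.38 CPM at 6 h, with 52, 56 and 73 counts (log2 fold change -5.85, standard error 0.44, edgeR adjusted p = 1.24e-06). CHAC1, which breaks down glutathione, fell from 8.85, 8.08 and 10.2 CPM to 1.33, 0.941 and 0.834 CPM (log2 fold change -3.14, standard error 0.43, edgeR adjusted p = 8.17e-05), and SLC7A11, the cystine transporter, from 33.1, 31.03 and 32.4 CPM to 5.43, 5.903 and 7.05 CPM (log2 fold change -2.39, standard error 0.25, edgeR adjusted p = 1.26e-05). The 2 that rose were DDIT4, an inhibitor of mTORC1 that is also a known HIF target, from 327, 265 and 353 CPM to 648, 666 and 931 CPM (log2 fold change 1.25, standard error 0.24, edgeR adjusted p = 0.000975), and ATF5, from 18.3, 17.8 and 17.7 CPM to 32.3, 36.7 and 29.1 CPM (log2 fold change 0.87). ATF4 itself (-0.34, edgeR adjusted p = 0.0628), PHGDH (-0.03), SHMT2 (-0.15), CEBPB (-0.18) and VLDLR (0.58) were not called. The aminoacyl-tRNA synthetases, which load amino acids onto tRNA and partly follow ATF4, gave 3 higher, 6 lower and 11 not called of 20, with a median of -0.13. Of all tested genes 25.1% were higher and 27.7% lower, so no direction is given for this list. AARS1 fell from 494, 559 and 512 CPM to 148, 169.7 and 197 CPM (log2 fold change -1.61, standard error 0.21, edgeR adjusted p = 4.74e-05), while HARS1 rose by 0.76 and KARS1 by 0.72 on the log2 scale, calls lost on library size alone (0.44 and 0.40).

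The counts for protein folding in the endoplasmic reticulum depended on the library. HERPUD1, a part of the degradation machinery, fell from 82.03, 129 and 90.1 CPM to 16.98, 19.9 and 17.9 CPM (log2 fold change -2.46, standard error 0.26, edgeR adjusted p = 1.22e-05), and XBP1, a factor of the unfolded protein response, from 61.97, 73.7 and 61.5 CPM to 26.9, 26.9 and 29.4 CPM (log2 fold change -1.24, standard error 0.21, edgeR adjusted p = 0.000349). ERO1A, the oxidase that makes disulfide bonds, rose from 86.1, 102 and 84.9 CPM to 204, 176 and 188 CPM (log2 fold change 1.06, standard error 0.13, edgeR adjusted p = 3.20e-05). HSP90B1, the chaperone GRP94, was at 549, 878 and 539 CPM and 1017, 770.1 and 1244 CPM, groups that overlap, and its call (log2 fold change 0.62, edgeR adjusted p = 0.0422) did not survive the loss of replicate 1 or 3 of 0 h or of 6 h, or of replicate 2 or 3 of 12 h (log2 fold changes 0.45 to 0.88). Of 19 tested genes 4 were higher and 6 lower. The list medians of the 3 libraries were -0.64, -0.50 and 0.19, and without 6 h replicate 3 the counts were 1 higher and 9 lower, with a median of -0.68. A library at 0 h also stood above its group: the summed level of the list was 5709, 9218 and 6012 CPM at 0 h and 5761, 5595 and 8425 CPM at 6 h, highest in replicate 2 of 0 h and replicate 3 of 6 h. Without 0 h replicate 2 the counts were 4 higher and 4 lower and the median was 0.0028, against -0.40 with all libraries. No direction is given for the list.

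Genes of ribosome biogenesis rose almost as a whole. Of 32 tested 30 were called higher and none lower, with a median of 1.11, and on library size alone 21 were higher. NOP16, a nucleolar protein, rose from 15.1, 14.5 and 15.99 CPM to 101, 91.8 and 70.1 CPM (log2 fold change 2.53, standard error 0.16, edgeR adjusted p = 5.17e-07), LYAR from 8.73, 7.68 and 9.14 CPM to 43.1, 37.8 and 29.8 CPM (log2 fold change 2.11, standard error 0.16, edgeR adjusted p = 1.28e-06) and POLR1G, a subunit of RNA polymerase I, from 5.75, 4.96 and 5.87 CPM to 20.3, 27.4 and 16.1 CPM (log2 fold change 1.94, edgeR adjusted p = 8.46e-06). The smallest changes were in WDR12 (0.36), POLR1A (0.51) and TCOF1 (0.51, not called). The calls of WDR12 and POLR1A were lost on leaving out any library of 0 h or 6 h replicate 1, and that of POLR1A also without 6 h replicate 2 or 12 h replicate 2 or 3 (log2 fold changes 0.31 to 0.40 and 0.38 to 0.70). The proteins of the finished cytosolic ribosome had a median of 0.52, and 14 of 79 (17.7%) were called, all higher, against 25.1% of all genes. Their summed level was 51297, 52090 and 53882.5 CPM at 0 h and 70755, 73381 and 82215 CPM at 6 h. The 24 h libraries, which enter the standard errors, lay far apart in this list, at 185380 and 469406 CPM. The share of calls is therefore no measure of how far the list moved. FAU had the highest change, from 154, 148 and 163 CPM to 294, 302 and 289 CPM (log2 fold change 0.93, standard error 0.28, edgeR adjusted p = 0.0147), followed by RPL24 (0.80). The call of FAU was lost without 0 h replicate 2, and that of RPL24 without any library of 0 h or 6 h replicate 3 (log2 fold changes 0.89 to 0.96 and 0.78 to 0.83). Without 0 h replicate 2, 0 of the 79 were called, with a median of 0.51. Without 6 h replicate 3, 2 of the 79 were called, and on library size alone 2 were higher and 1 lower.

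By their medians the nuclear and the mitochondrial genes of the respiratory chain moved apart. Of 76 nuclear genes 27 were called higher and 5 lower, with a median of 0.44, and of 13 proteins encoded in mitochondrial DNA none was higher and 10 were lower, with a median of -1.16. Mitochondrial genes took 10.2 to 10.3% of all counts at 0 h and 4.30 to 5.27% at 6 h. In bulk RNA fewer mitochondrial transcripts per cell and other changes in the RNA of the cell cannot be told apart, and neither can fewer cells of a kind and less RNA per cell. MT-CO1, the first subunit of cytochrome oxidase, stood at 15941, 16633 and 16420.0 CPM at 0 h and 6410.4, 7253 and 6124 CPM at 6 h (log2 fold change -1.31, standard error 0.46, edgeR adjusted p = 0.0303). MT-ND4, of complex I, stood at 11155, 11033 and 11252 CPM and 5303, 5379.6 and 4278 CPM (log2 fold change -1.16, standard error 0.36, edgeR adjusted p = 0.0170). MT-ND6, the subunit read from the other strand, stood at 927, 942 and 871 CPM and 430.2, 509 and 267 CPM (log2 fold change -1.18, standard error 0.25, edgeR adjusted p = 0.00164).

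The mitochondrial genes differed among themselves. MT-CO2 was at 10072, 9412 and 10161 CPM and 9319, 8670.4 and 6994 CPM (log2 fold change -0.25), MT-ND3 at 790.4, 784 and 809.7 CPM and 676, 778 and 593 CPM (-0.22) and MT-CYB at 3122, 3105 and 3279.9 CPM and 2048, 2599 and 1775 CPM (-0.57). These 3 were not called. The others fell, with log2 fold changes of -1.38 for MT-ND4L, -1.32 for MT-ND5, -1.31 for MT-ATP8, -1.29 for MT-ND1, -1.01 for MT-CO3, -0.92 for MT-ATP6 and -0.84 for MT-ND2. Without 6 h replicate 3, 6 of the 13 were called lower, and the calls of MT-CO1, MT-ND4, MT-ATP6 and MT-ND4L were lost (log2 fold changes -1.25, -1.06, -0.79 and -1.33). The call of MT-CO1 was lost without any library of 0 h or 6 h (-1.38 to -1.25) and that of MT-ND4L also on leaving out replicate 1 or 3 of 0 h or replicate 1 of 6 h (-1.54 to -1.27). At 24 h the summed level of the 13 was 12573 and 4900 CPM in replicates 1 and 2, and this spread enters the standard errors as well.

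Of the nuclear subunits, ATP5MC3, of the ATP synthase ring, rose from 71.6, 63.3 and 75.9 CPM to 132, 136 and 126 CPM (log2 fold change 0.90, standard error 0.21, edgeR adjusted p = 0.00349), NDUFB6 of complex I by 0.84 and cytochrome c, CYCS, by 0.83 on the log2 scale. Among those that fell were NDUFV3, from 26.7, 24.8 and 27.2 CPM to 11.1, 11.5 and 10.7 CPM (log2 fold change -1.24, standard error 0.17, edgeR adjusted p = 9.26e-05) and NDUFV2 (-1.05), both of complex I. Without 6 h replicate 3, 19 of the 76 were higher and 4 lower, with a median of 0.46. Without 0 h replicate 2, 10 were higher and 4 lower, with a median of 0.40. On library size alone 5 of the 76 were higher and 10 lower, with a median of 0.12. The number of calls thus depended on single libraries, and their balance on the scaling.

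Cholesterol synthesis rose in 14 of 24 genes and fell in 2, with a median of 0.73. Several of its steps consume oxygen. SQLE, the epoxidase that does so first, rose from 99.7, 116 and 102 CPM to 415, 406 and 302 CPM (log2 fold change 1.82, standard error 0.17, edgeR adjusted p = 4.47e-06), SC5D from 27.8, 34.01 and 30.4 CPM to 112, 94.7 and 101 CPM (log2 fold change 1.74, standard error 0.13, edgeR adjusted p = 1.22e-06) and DHCR7 from 59.8, 62.7 and 68.2 CPM to 195, 250.4 and 189 CPM (log2 fold change 1.73, standard error 0.16, edgeR adjusted p = 5.22e-06). HSD17B7 (-1.22) and TM7SF2 (-1.19) fell, and PMVK (-0.19) was not called.

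Genes of the antioxidant factor NRF2 rose in 11 of 17 tested and fell in 1, SLC7A11, with a median of 0.70. PRDX1, a peroxiredoxin, rose from 83.2, 71.7 and 78.00 CPM to 348, 334 and 304 CPM (log2 fold change 2.08, standard error 0.15, edgeR adjusted p = 8.29e-07), TXNRD1, thioredoxin reductase, from 79.4, 72.3 and 75.5 CPM to 315, 278 and 276 CPM (log2 fold change 1.93, standard error 0.13, edgeR adjusted p = 5.96e-07) and its substrate TXN from 143, 132 and 141 CPM to 346, 326 and 286 CPM (log2 fold change 1.20, standard error 0.20, edgeR adjusted p = 0.000328). GCLM (-0.03) and OSGIN1 (0.04) were not called. On library size alone 5 of the 17 were higher.

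Of the 29 lists the mitotic genes were the one in which 6 h replicate 3 lay farthest from the other 6 h libraries. The summed level of 28 genes of mitosis and G2/M was 1883, 1375 and 1631 CPM at 0 h and 1489, 1534 and 703 CPM at 6 h, so 6 h replicate 3 lay well below every other library and the other 2 lay within the range at 0 h. The list medians of the 3 libraries against 0 h were -0.25, -0.19 and -1.57. In MKI67, the proliferation marker, looked up after the list was seen, the levels were 239, 146 and 206 CPM at 0 h and 208, 221 and 58.4 CPM at 6 h, with no call (edgeR adjusted p = 0.606), and in PLK1, a mitotic kinase looked up likewise, 43.1, 32.3 and 37.5 CPM and 29.01, 39.5 and 8.42 CPM. With all libraries 1 of the 28 genes was called higher and 8 lower with a median of -0.55, and without 6 h replicate 3, 2 were higher and 5 lower with a median of -0.19. What sets this library apart was not tested.

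Some cell cycle genes changed in every 6 h library. HMMR, which binds the mitotic spindle, fell from 38.7, 25.6 and 32.7 CPM to 4.58, 3.57 and 3.01 CPM (log2 fold change -3.13, standard error 0.21, edgeR adjusted p = 6.16e-07), with a log2 fold change of -2.98 without 6 h replicate 3. PTTG1, securin, rose from 55.2, 43.1 and 47.97 CPM to 106, 109.6 and 64.9 CPM (log2 fold change 0.94, standard error 0.19, edgeR adjusted p = 0.00131). NDC80 and KIF2C, of the kinetochore, fell, with log2 fold changes of -1.95 and -1.61, or -1.60 and -1.28 without 6 h replicate 3. CDC20 (0.30) and BUB3 (0.05) were not called. Of 32 genes of DNA replication and the G1/S transition 5 were higher and 11 lower, with a median of -0.30. CDT1, which licenses origins, fell from 88.2, 76.7 and 92.04 CPM to 25.2, 38.6 and 35.01 CPM (log2 fold change -1.38, standard error 0.18, edgeR adjusted p = 5.26e-05), and RFC4 (-1.33) and CDC45 (-1.15) also fell, while CCNE1, cyclin E, rose from 4.92, 4.13 and 5.22 CPM to 11.2, 11.8 and 14.7 CPM (log2 fold change 1.40, standard error 0.22, edgeR adjusted p = 0.000184), with FEN1 (1.03) and PCNA (0.59). The call of PCNA was lost without 0 h replicate 2 (0.45) and on library size alone (0.27).

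**Figure D3:**
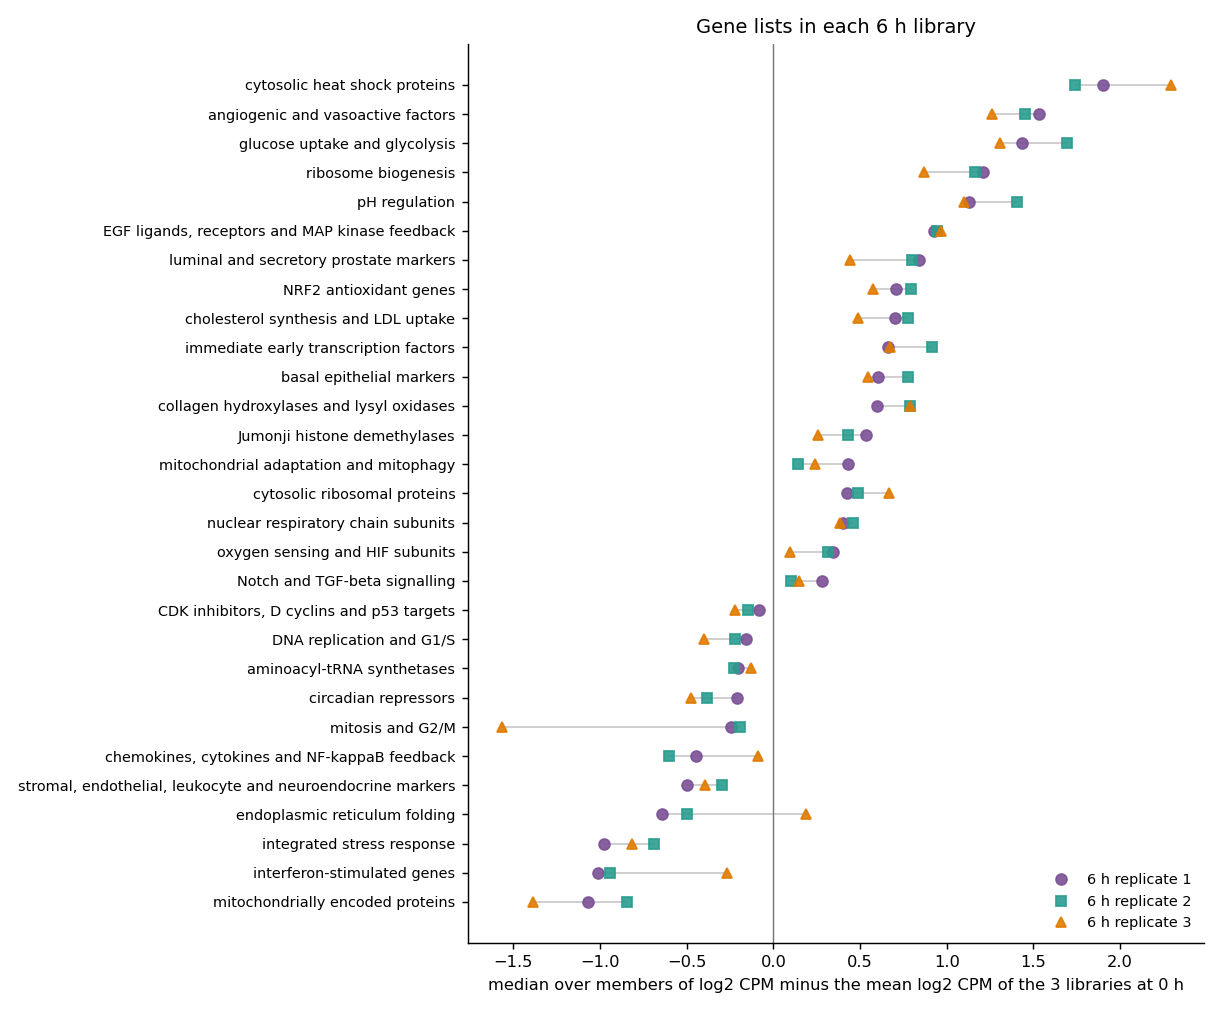
Median over the members of each list of the log2 CPM in a 6 h library minus the mean log2 CPM of the 3 libraries at 0 h, for 6 h replicate 1 (circles), 2 (squares) and 3 (triangles). The libraries lie close together for most lists, but replicate 3 lies at -1.57 for mitosis and G2/M, where the others lie at -0.25 and -0.19.

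Among CDK inhibitors, D cyclins and p53 targets 5 of 21 were higher and 8 lower. CCND1, cyclin D1, rose from 68.4, 61.04 and 65.1 CPM to 188, 219 and 165 CPM (log2 fold change 1.55, standard error 0.15, edgeR adjusted p = 7.15e-06), CCND3 by 1.17 and CCNG2, an inhibitory cyclin, by 1.23 on the log2 scale. GDF15, a secreted stress signal, fell from 80.2, 96.5 and 83.3 CPM to 4.37, 6.94 and 18.99 CPM (log2 fold change -3.08, standard error 0.40, edgeR adjusted p = 5.58e-05), with the 6 h libraries widely spread. CDKN2C, a CDK inhibitor, fell from 12.8, 8.53 and 11.95 CPM to 2.43, 2.24 and 1.99 CPM (log2 fold change -2.33, standard error 0.22, edgeR adjusted p = 6.38e-06), and BBC3, the cell death gene PUMA, from 22.8, 21.2 and 23.1 CPM to 4.61, 5.87 and 6.198 CPM (log2 fold change -2.003, standard error 0.16, edgeR adjusted p = 1.88e-06). The median from the edgeR fit was 0.03, whereas the medians of the single 6 h libraries were -0.08, -0.15 and -0.22 and that on library size alone -0.29, so no direction is given for the list.

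Interferon-stimulated genes, which cells use against viruses, fell in 13 of 26 tested and rose in 1, with a median of -0.56. IFIT2 fell from 14.8, 12.6 and 14.9 CPM to 2.46, 1.26 and 2.69 CPM (log2 fold change -2.70, standard error 0.32, edgeR adjusted p = 2.69e-05), CMPK2 from 1.83, 1.89 and 2.07 CPM to 0.239, 0.259 and 0.474 CPM (log2 fold change -2.49, standard error 0.39, edgeR adjusted p = 0.000209) and XAF1 from 2.96, 3.15 and 2.09 CPM to 0.171, 0.0973 and 0.455 CPM (log2 fold change -3.34, standard error 0.51, edgeR adjusted p = 0.000174), the last at 5, 3 and 24 counts. BST2, which holds viruses at the cell surface, was the 1 that rose, by 0.61 on the log2 scale (edgeR adjusted p = 0.0406), a call lost on leaving out any library of 0 h, or replicate 2 or 3 of 6 h or 12 h (0.51 to 0.71). IFI27 and IFI6 were highest in 6 h replicate 3, with 4.37, 5.22 and 10.4 CPM and 9.05, 11.1 and 20.6 CPM at 6 h against 4.99, 6.64 and 5.43 CPM and 12.2, 11.9 and 11.5 CPM at 0 h, and were not called. Without 6 h replicate 3, 16 of the 26 were lower and none higher.

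Of 15 tested chemokines, cytokines and feedback genes of NF-kappaB 3 were higher and 5 lower. NFKBIA, the inhibitor of NF-kappaB, rose from 47.9, 41.8 and 45.5 CPM to 228, 366 and 134 CPM (log2 fold change 2.43, standard error 0.33, edgeR adjusted p = 7.91e-05), a wide spread within 6 h. IL18 (0.73) and CXCL16 (0.72) rose. NFKBIZ fell from 8.18, 8.56 and 8.66 CPM to 1.98, 2.37 and 1.33 CPM (log2 fold change -2.18, standard error 0.31, edgeR adjusted p = 0.000112), IL1A from 59.2, 52.8 and 51.3 CPM to 24.8, 26.4 and 32.6 CPM (log2 fold change -0.96, standard error 0.25, edgeR adjusted p = 0.00690) and TNFAIP3, with a log2 fold change of -0.82 (edgeR adjusted p = 0.0309). TNFAIP3 lost its call on leaving out replicate 1 or 2 of either group (-1.17 to -0.64). IL6 and CCL2 had at most 1 count in any of the 6 libraries.

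Genes of the circadian clock split, with 5 of 16 higher and 8 lower. CRY1, a repressor of the clock, rose from 8.73, 12.5 and 9.23 CPM to 72.8, 60.1 and 44.4 CPM (log2 fold change 2.54, standard error 0.20, edgeR adjusted p = 1.98e-06), BMAL1, its activator and a relative of the HIF subunits, from 11.8, 12.7 and 13.4 CPM to 46.7, 41.4 and 39.99 CPM (log2 fold change 1.76, standard error 0.25, edgeR adjusted p = 0.000107) and PER1 from 93.1, 80.2 and 89.3 CPM to 258, 348 and 204 CPM (log2 fold change 1.63, standard error 0.19, edgeR adjusted p = 2.14e-05). HLF fell from 10.4, 8.74 and 11.3 CPM to 1.298, 0.876 and 1.71 CPM (log2 fold change -2.94, standard error 0.25, edgeR adjusted p = 2.72e-06), PER3 from 77.7, 77.9 and 77.3 CPM to 24.8, 24.9 and 30.95 CPM (log2 fold change -1.53, standard error 0.17, edgeR adjusted p = 1.74e-05) and DBP from 50.8, 39.1 and 48.3 CPM to 15.2, 21.6 and 15.05 CPM (log2 fold change -1.42, standard error 0.19, edgeR adjusted p = 5.60e-05). The labels give no time of day, so clock phase and hypoxia cannot be told apart in these genes.

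Epithelial identity genes also moved. Of 14 basal markers 7 were higher and 3 lower. TP63, the regulator of basal cells, fell to 83.3, 67.00 and 70.2 CPM at 6 h from the levels given above (log2 fold change -1.72, standard error 0.16, edgeR adjusted p = 5.43e-06). KRT15, a keratin of basal progenitors, fell from 286, 250.3 and 341 CPM to 57.4, 51.7 and 155 CPM (log2 fold change -1.73, standard error 0.35, edgeR adjusted p = 0.00133), with 6 h replicate 3 the highest of its group, and CDH3, P-cadherin, from 367, 361 and 346 CPM to 199, 252 and 257 CPM (log2 fold change -0.60, standard error 0.15, edgeR adjusted p = 0.00459). ITGA6, an integrin subunit of basal cells, rose from 466, 399 and 458 CPM to 1729.8, 1649.9 and 915 CPM (log2 fold change 1.70, standard error 0.27, edgeR adjusted p = 0.000209), and the stress keratins KRT6A and KRT6B, close paralogs, by 1.56 and 1.23 on the log2 scale. KRT17, another stress keratin, rose from 3940.1, 4159 and 4691 CPM to 7730.4, 8283 and 7978 CPM (log2 fold change 0.91, standard error 0.30, edgeR adjusted p = 0.0233), a call lost on leaving out any library of 0 h, or replicate 2 or 3 of 6 h (log2 fold changes 0.85 to 0.97).

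Among 9 tested luminal markers 4 were higher and 2 lower. The keratins KRT8, from 149, 147 and 133 CPM to 399, 446 and 312 CPM (log2 fold change 1.43, standard error 0.22, edgeR adjusted p = 0.000208), and KRT18, from 108, 104 and 93.9 CPM to 286, 361 and 304 CPM (log2 fold change 1.63, standard error 0.17, edgeR adjusted p = 9.70e-06), rose, as did the transporter SLC45A3 (1.78). KRT19 (-0.74) and ACP3 (-1.28), prostatic acid phosphatase, fell, the call of KRT19 being lost on leaving out replicate 1 or 3 of 0 h or replicate 1 of 6 h (-0.86 to -0.68). TMPRSS2, FOLH1 and MSMB were under 1 CPM in every library and were not called.

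In Notch and TGF-beta signalling 8 of 24 genes were higher and 7 lower, with a median of 0.23 that was -0.09 on library size alone. NOTCH3, a receptor, fell from 491, 469 and 545 CPM to 122, 154 and 194 CPM (log2 fold change -1.68, standard error 0.17, edgeR adjusted p = 8.17e-06), while DLL1, a ligand, rose from 1.69, 1.87 and 1.51 CPM to 8.23, 8.72 and 4.98 CPM (log2 fold change 2.11, standard error 0.33, edgeR adjusted p = 0.000194). The ligand TGFB1 rose from 28.1, 30.9 and 31.3 CPM to 61.9, 79.6 and 71.5 CPM (log2 fold change 1.24, standard error 0.19, edgeR adjusted p = 0.000150) and the receptor TGFBR2 by 0.99 on the log2 scale. ID3 (-1.32) and HEY1 (-0.85), targets of the pathways, fell. HEY1 lost its call on leaving out any library of 0 h, or replicate 1 or 2 of 6 h (-1.05 to -0.65).

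The 12 lowest genes included several that are known for transcription or xenobiotic metabolism. CYP1A1 (ENSG00000140465, chromosome 15, 74719542 to 74725536, minus strand) and CYP1B1, the cytochrome P450 enzymes that the aryl hydrocarbon receptor induces with ARNT as its partner, fell from 25.1, 24.8 and 24.9 CPM to 1.74, 2.04 and 2.63 CPM (log2 fold change -3.53, standard error 0.24, edgeR adjusted p = 6.87e-07) and from 24.2, 13.5 and 24.04 CPM to 0.888, 1.103 and 1.42 CPM (log2 fold change -4.15, standard error 0.33, edgeR adjusted p = 1.88e-06). The zinc finger genes ZC3H6, ZFP3 and ZNF658 fell, ZC3H6 from 16.2, 13.1 and 15.6 CPM to 0.752, 0.681 and 0.891 CPM (log2 fold change -4.25, standard error 0.26, edgeR adjusted p = 3.89e-07), ZFP3 from 10.9, 12.5 and 11.5 CPM to 1.13, 0.746 and 0.834 CPM and ZNF658 from 9.96, 9.596 and 9.43 CPM to 1.298, 1.103 and 0.682 CPM. BMF, a cell death gene of the BCL2 family, fell from 20.1, 20.4 and 21.9 CPM to 1.54, 1.33 and 1.63 CPM (log2 fold change -3.79, standard error 0.34, edgeR adjusted p = 3.68e-06), and SLFN5, a Schlafen gene induced by interferon, from 82.03, 90.5 and 74.8 CPM to 4.82, 3.02 and 10.3 CPM (log2 fold change -3.75, standard error 0.37, edgeR adjusted p = 8.13e-06). GPCPD1, a phosphodiesterase that yields choline, fell from 98.2, 107 and 103 CPM to 11.6, 7.98 and 12.4 CPM (log2 fold change -3.27, standard error 0.21, edgeR adjusted p = 5.83e-07), and CARF from 9.17, 9.86 and 9.14 CPM to 0.923, 0.616 and 1.31 CPM (log2 fold change -3.27). JMJD7-PLA2G4B, a readthrough model that shares exons with its neighbours and whose counts are therefore uncertain, fell from 24.4, 22.1 and 24.2 CPM to 2.46, 2.34 and 2.33 CPM.

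By difference in CPM, which favours abundant and long genes, and among called protein-coding genes with a mean of at least 5 CPM and no overlap between the groups, the largest gains were in NDRG1, KRT17, HSP90AA1, HSPA1A, HSPA8 and LDHA and the largest losses in 6 mitochondrial genes, MT-CO1, MT-ND4, MT-CO3, MT-ATP6, MT-ND2 and MT-ND5. NDRG1, a stress gene and known HIF target, rose from 1667, 1964 and 1948 CPM to 7364, 8007 and 6570.4 CPM (log2 fold change 1.98, standard error 0.22, edgeR adjusted p = 2.00e-05).

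The types of gene did not move alike. Of 13802 protein-coding genes 28.2% were called higher and 27.8% lower, with a median of 0.01. Of 2631 long non-coding RNA (lncRNA) genes 12.0% were higher and 44.3% lower, with a median of -0.78, and of 2158 processed pseudogenes, copies of mRNA in the genome, 26.6% were higher and 5.70% lower, with a median of 0.45. On library size alone the lncRNA genes were 212 higher and 1384 lower and the pseudogenes 270 higher and 184 lower, so the pseudogene balance rested in part on the scaling. With an offset for GC content and exonic length the counts were 324 and 1151 for lncRNA genes and 511 and 151 for pseudogenes. Of the pseudogenes 1627 carry the name of a tested parent gene. Of these 469 were called higher, and for 365 the parent was called higher too, a parent being counted once per copy. The median log2 fold change was 0.48 over the 1627 and 0.56 over their parents. How many parents were called higher among all 1627 was not counted, so the 365 have no background share. The sources used here do not give how reads that match a parent and its copy were assigned.

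**Figure D4:**
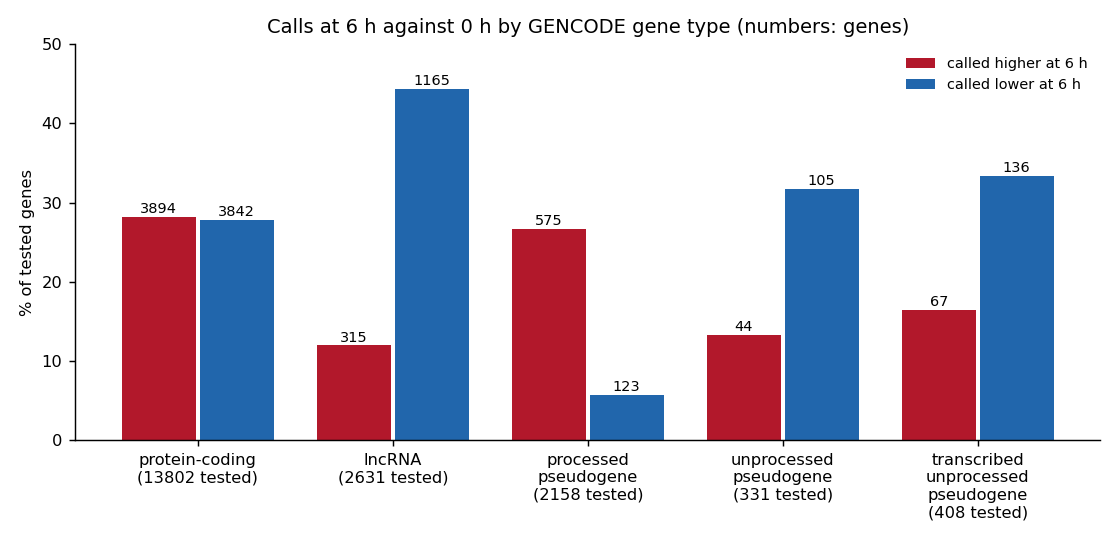
Percent of tested genes of each GENCODE type called higher (red) or lower (blue) at 6 h against 0 h, with the number of genes over each bar. For lncRNA genes the blue bar, 44.3%, stands far above the red, 12.0%, and for processed pseudogenes the order is the opposite.

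The share of all counts taken by lncRNA genes was 1.88 to 1.90% at 0 h and 1.46, 2.60 and 3.20% at 6 h. On chromosome 21, 4 models (ENSG00000281383, ENSG00000281181, ENSG00000280614 and ENSG00000280800), of which 3 lie over ribosomal RNA genes by RefSeq, took 0.393 to 0.477% of all counts at 0 h and 0.645, 1.78 and 2.41% in 6 h replicates 1, 2 and 3. Without them the share of lncRNA genes was 1.40 to 1.49% at 0 h and 0.797 to 0.816% at 6 h, so the groups were clearly apart. NEAT1, the RNA that builds paraspeckles, and MALAT1, of nuclear speckles, are abundant and were looked up after the count was seen. NEAT1 fell from 496, 491 and 434 CPM to 82.8, 59.6 and 83.8 CPM (log2 fold change -2.65, standard error 0.29, edgeR adjusted p = 1.41e-05) and MALAT1 from 935, 941 and 872 CPM to 294, 549 and 442 CPM (log2 fold change -1.10, standard error 0.35, edgeR adjusted p = 0.0198), the latter call being lost on leaving out replicate 1 or 3 of 6 h (-1.31 to -0.88).

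Of named lncRNA genes with a mean of at least 1 CPM, a call and no overlap, 61 were higher and 318 lower. The highest were SUCLA2-AS1, HIF1A-AS3, SLCO4A1-AS1 and UBE2D3-AS1. SUCLA2-AS1 (ENSG00000227848, chromosome 13, 48001389 to 48002552, plus strand) had 3, 4 and 6 counts at 0 h and 388, 539 and 165 at 6 h (log2 fold change 6.67, standard error 0.74, edgeR adjusted p = 1.65e-05), and HIF1A-AS3, which overlaps HIF1A on the other strand, 1, 4 and 4 counts and 86, 107 and 87 counts (log2 fold change 5.10, standard error 0.63, edgeR adjusted p = 3.73e-05). SLCO4A1-AS1 had 3, 6 and 4 counts and 72, 118 and 96 counts and UBE2D3-AS1 5, 10 and 10 counts and 80, 55 and 147 counts, so the sizes of all 4 changes rest on few reads at 0 h. The lowest were MRPL23-AS1, COLCA1, ZNF778-DT and MELTF-AS1. MRPL23-AS1 had 130, 79 and 117 counts at 0 h and 1, 4 and 2 at 6 h, and COLCA1 181, 208 and 154 counts and 2, 8 and 22 counts (log2 fold change -4.03, standard error 0.44, edgeR adjusted p = 1.47e-05). ZNF778-DT had 110, 113 and 99 counts at 0 h and 6, 6 and 9 at 6 h, and MELTF-AS1 155, 119 and 157 and 11, 5 and 18 (log2 fold changes -3.79 and -3.54).

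To see where 6 h stood in the course of hypoxia, the 12 h libraries were compared with those at 6 h. Of the tested genes 989 (4.95%) were called, a count that ran from 61 without 12 h replicate 3, through 125 without 12 h replicate 2, 151 and 242 without 6 h replicates 2 and 1, 432 to 490 without single 0 h libraries and 627 without 12 h replicate 1, to 3621 and 3649 without 24 h replicates 1 and 2. The 6 h libraries enter this comparison and that with 0 h alike, and the genes here were chosen by their 6 h values. Of the 12 highest genes ASB2 was higher at 12 h and UBASH3B lower. ASB2 stood at 17.01, 30.9 and 28.2 CPM at 12 h and 44.03 and 77.6 CPM at 24 h (log2 fold change 1.12 from 6 h to 12 h, edgeR adjusted p = 0.0243), and UBASH3B at 3.28, 5.42 and 4.64 CPM and 3.85 and 4.58 CPM (-1.13, edgeR adjusted p = 0.0474). Of the 12 lowest 6 were higher at 12 h and none lower. DDIT3 stood at 4.43, 11.6 and 18.5 CPM at 12 h and 15.1 and 13.5 CPM at 24 h, above every 6 h library and below every library at 0 h (log2 fold change 2.82 from 6 h to 12 h, edgeR adjusted p = 0.00554). BMF stood at 4.43, 8.83 and 12.9 CPM at 12 h and 3.25 and 2.07 CPM at 24 h (2.54, edgeR adjusted p = 0.00381). ZC3H6 (1.61), ZNF658 (1.42), ZFP3 (1.37) and CYP1A1 (0.87) were the others. The calls of DDIT3 and BMF held on leaving out each of the 11 libraries in turn and that of ZC3H6 on leaving out 10 of them, all but 12 h replicate 3, while the other 5 calls of this comparison held on leaving out 3 to 6 of the 11. The other 16 of these 24 genes were not called between 6 h and 12 h, which does not show that they stayed the same.

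**Figure D5:**
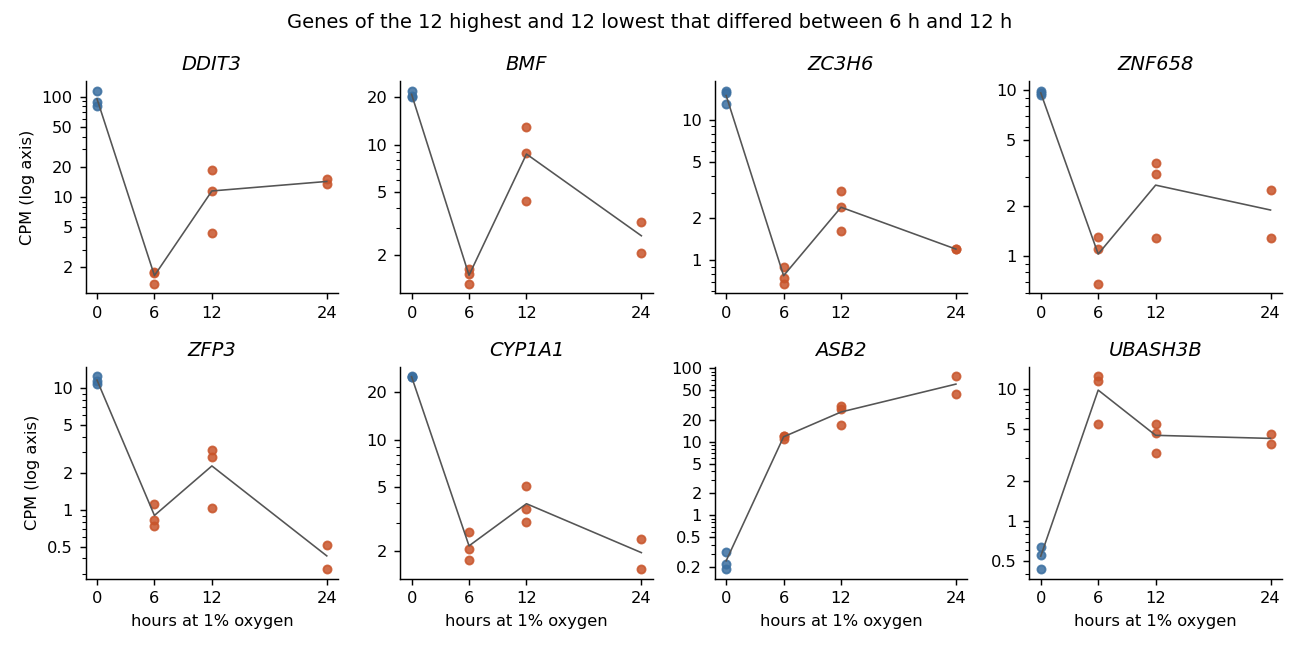
CPM on a log axis in each library at 0 h (blue) and at 6, 12 and 24 h of hypoxia (orange), with a line through the group means, for the 8 of the 12 highest and 12 lowest genes that were called at 12 h against 6 h. DDIT3 falls to 1.38 to 1.82 CPM at 6 h and lies above that range in every later library.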

How the data were processed

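Stranded single-end libraries of RWPE1 cells were compared, 3 at 0 h and 3 at 6 h of hypoxia. By the study's methods and the submitters' processing notes, the authors trimmed reads with Trimmomatic, aligned them with STAR to GRCh38 (Ensembl 99) and counted reads per gene with featureCounts, and the deposited table holds these raw counts per gene. The settings for strand and multiply mapped reads are not given in the sources used here. Columns were matched to the sample titles, and 0 columns were left without a sample. Symbols, types and positions came from GENCODE 44 (60357 of 60676 identifiers matched, 42009 of them with a symbol).

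Genes were filtered with filterByExpr (minimum count 10, minimum total 15), scaled by TMM and fitted with edgeR 4.0.16 (glmQLFit, glmQLFTest; limma 3.58.1, R 4.3.3) over all 11 libraries, with 1 term per group and without a block. Tables and figures were made in Python 3.11.15. CPM values used TMM-scaled library sizes. The labels give the same replicate numbers in each group. Deviations from the group means in 0 h and 6 h libraries of the same number had r of -0.003, -0.088 and -0.089, so the numbers were not taken as pairs.

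Genes were named by rule: the 12 highest and 12 lowest protein-coding genes (called, mean at least 5 CPM, no overlap between groups), the 6 largest gains and losses in CPM, the 4 highest and lowest lncRNA genes, and per list the 3 highest and lowest with a mean of at least 1 CPM, or all of a list of at most 13 genes. The members and lists were chosen with earlier results of these data known. The fit was tested on simulated counts for this comparison (19143 genes), where 63 of 100 genes changed 2-fold and 100 of 100 changed 4-fold were recovered, with 9 false calls. No other genes were changed, against 52.8% of tested genes called in the data, and each gene had the same dispersion in every group. These figures may thus not carry over to the data. The alternatives were limma-voom, DESeq2 1.42.0, 2 other scalings, 2 other filters, the compared groups alone, a replicate block, an offset for GC content and exonic length, and each library left out in turn. Results for some genes that the rule names are not reported here. Promoters were read from a RefSeq table (GRCh38.p14).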

Additional observations from a re-analysis of the deposited data

Results flagged for a closer look

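The genes below differed between 12 h and 6 h of hypoxia by a direct contrast in the edgeR fit (adjusted p under 0.05, 4.95% of all tested genes), among the 224 tested genes described above. The 6 h libraries are part of this contrast and of that with 0 h, and the genes were chosen by their values at 6 h. Values are log2 fold changes of 12 h over 6 h, with 3 libraries per group.

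Of the genes lower at 6 h than at 0 h, those higher again at 12 h were DDIT3 (2.82) and BMF (2.54), genes of stress-induced cell death, ZC3H6 (1.61), ZNF658 (1.42) and ZFP3 (1.37), zinc finger genes, IFIT2 (1.45), an interferon-stimulated gene, ID3 (1.36), a target of TGF-beta family signals, EGFR (0.997), the receptor of EGF, CYP1A1 (0.87), a cytochrome P450, CDT1 (0.83), of replication licensing, and TP63 (0.77), of basal identity. IFIT2 stood at 3.52, 7.26 and 6.85 CPM at 12 h, and TP63 at 105, 127 and 143 CPM. DDIT3 and BMF were called on leaving out each of the 11 libraries, ZC3H6 on leaving out 10, TP63 on leaving out 8, CDT1, EGFR and IFIT2 on leaving out 7, CYP1A1 on leaving out 4, and ID3, ZFP3 and ZNF658 on leaving out 3.

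Of the genes higher at 6 h than at 0 h, ASB2 (1.12) and PFKP (0.49) were higher still at 12 h. Those lower at 12 h than at 6 h were UBASH3B (-1.13), POLR1G (-1.12), of RNA polymerase I, CRY1 (-0.80), a clock repressor, CCNG2 (-0.75), SIAH2 (-0.73), TXNRD1 (-0.64) and HIF1AN (-0.55). POLR1G stood at 9.57, 10.2 and 9.64 CPM at 12 h. Of these 9 genes POLR1G was called on leaving out 9 of the 11 libraries, SIAH2 on leaving out 8, TXNRD1 on leaving out 7, ASB2 on leaving out 6, CRY1 and HIF1AN on leaving out 4, UBASH3B and CCNG2 on leaving out 3 and PFKP on leaving out 2.

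Genes not called at 6 h against 0 h but lower at 12 h than at 6 h were MT-ND3 (-0.71), VHL (-0.65) and SLC4A7 (-0.59), called on leaving out 3, 3 and 2 of the 11 libraries. Groups of 3 are too small for a test of single outlying libraries, so the position of 6 h replicate 3 is given above as values only.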

How the results depend on the processing

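The counts of genes called at 6 h against 0 h stayed within 1.5 times of those reported under most alternatives. Exceptions were 2713 genes higher with library size alone, and with at least 10 counts in every library, where fewer genes are tested, 3625 genes beyond 2-fold, 604 beyond 4-fold, 92 lncRNA genes higher and 312 lower, and 51 processed pseudogenes lower. Processed pseudogenes were 270 higher with library size alone. Leaving out single libraries gave 8657 to 13115 calls (4027 to 6350 higher, 4621 to 6819 lower), 5605 to 6637 beyond 2-fold, 1628 to 1965 beyond 4-fold, 242 to 411 lncRNA genes higher and 925 to 1402 lower, and 395 to 870 processed pseudogenes higher (863 and 870 without 24 h replicate 1 or 2) and 91 to 173 lower. Calls at 12 h against 6 h were 1921 with DESeq2, 1674 without a filter, 1876 with only the compared groups and 61 to 3649 without single libraries. With the replicate block, which the samples share only by number, 10124 genes were called at 6 h against 0 h and 510 at 12 h against 6 h. The cause of these shifts was not tested. For the 224 tested genes described, 4267 of 4446 values under alternatives kept direction and side of the threshold, 113 (in 27 genes) lost the call, 66 gained it, and 0 turned the direction of a called gene. List medians relative to all genes moved by less than the spread between replicates in 552 of 580 values under alternatives. In simulated counts, where few genes changed, 63 of 100 changes of 2-fold were recovered. Smaller changes at this depth and number of replicates may be missed, and the share missed in the data is not known.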

Other observations

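Some groups of genes were defined by their symbols after the values of all genes had been seen, so their counts describe these libraries and test nothing. Of 454 tested protein-coding genes whose symbol starts with ZNF, zinc finger proteins of which many repress transcription, 58 were called higher and 200 lower at 6 h, with a median log2 fold change of -0.43. The 219 of them on chromosome 19, where they lie in clusters, were 15 higher and 113 lower, with a median of -0.62. For all tested genes the shares were 25.1% higher and 27.7% lower. On library size alone the medians were -0.75 and -0.94, and without 6 h replicate 3 they were -0.38 and -0.55.

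Among lncRNA genes, 250 with symbols ending in -DT, which are transcribed away from the promoter of a neighbouring gene, were 11 higher and 149 lower, with a median of -1.27. The 549 with -AS in the symbol, which lie antisense to a gene, were 49 higher and 280 lower, with a median of -0.91. Of all 2631 tested lncRNA genes 12.0% were higher and 44.3% lower, with a median of -0.78, and both groups are to be read against these values. The exons of tested lncRNA genes had a median length of 2400 bases against 5298 for protein-coding genes and 707 for processed pseudogenes, and the median levels were 0.525, 16.7 and 1.46 CPM, so the 3 types also differed in length and in depth of counting.

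Of 8 tested metallothioneins, small proteins that bind zinc and copper, 5 were higher and none lower, against 25.1% and 27.7% of all tested genes. Their log2 fold changes ran from -0.20 to 1.89, with a median of 0.82 (0.50 on library size alone and 0.63 without 6 h replicate 3).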
